A study of Mus musculus with 6 samples.

Results

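The genes described here build the mitochondrial respiratory chain and the ATP synthase, and they come from both genomes of the cell. Members were all rows of a bulk RNA-Seq count table whose symbol begins with mt- (the mitochondrial genome) or with Nduf, Sdha, Sdhb, Sdhc, Sdhd, Uqcr or Atp5 (the nucleus). The rule found 98 rows, and the row with the highest total stood for each symbol, which left 69 of the table's 19509 symbols: 8 mitochondrial and 61 nuclear. Nuclear Cox genes were outside the rule, so complex IV is represented here only by mt-Co1, mt-Co2 and Ndufa4, which has a complex I name.

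Complex I (Nduf genes) and complex II (Sdh genes) pass electrons to coenzyme Q, complex III (Uqcr genes) passes them on to cytochrome c, and complex IV hands them to oxygen. Complexes I, III and IV pump protons as they do so, and the ATP synthase (Atp5 genes) lets the protons back and makes ATP. Complex II is entirely nuclear, whereas the others are assembled from subunits of both genomes, and in adipose tissue this machinery is best known for the oxidative capacity of brown and beige fat.

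RNA came from inguinal white adipose tissue (iWAT) of C57BL/6 mice that had eaten a Western diet for 12 weeks. Lexis is a long noncoding RNA. The 3 libraries labelled Lexis-AdWT came from Lexis fl/fl mice without Cre, which were littermate controls, and the 3 labelled Lexis-AdKO came from Lexis fl/fl mice carrying adiponectin-cre, a transgene that recombines the floxed allele in adipocytes and leaves the other cells of the tissue with an intact allele. The sex and age of the 6 mice are not given in the labels used here.

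Library totals ran from 14470542 to 17882713 counts. The row that carries Lexis, 4930412L05Rik (chr4:53217938-53230729, mm9, minus strand), was identified through 9 of the study's 16 hybridization probes that match the locus exactly. It held 8, 9 and 8 counts in the AdWT libraries and 21, 11 and 13 in the AdKO libraries, so it was not lower in AdKO. Where the floxed segment lies within this row is not given in the text used here, and the study's schematic of the knockout strategy was not read. The row therefore does not check the genotypes. AdWT and AdKO are used below as the libraries are labelled, and every direction rests on those labels.

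Adipocyte markers were abundant in all 6 libraries: the summed level of 6 white adipocyte markers was 56969 to 63756 CPM (counts as a rate per library, scaled by TMM, which aligns libraries on the bulk of their genes) in AdWT and 51908 to 53716 in AdKO. The brown or beige markers summed to 85.8 to 95.6 CPM in AdWT and to 108 to 121 in AdKO, and of 7 tested 5 lay above 0 and 2, Dio2 and Cox7a1, below. Of these 7, 2 had an unadjusted p under 0.05 and 0 an adjusted p under 0.05, against 5.73% and 0% of all rows tested by edgeR. Of the 6 white markers, 2 were higher and 4 lower in AdKO. Lep alone of them had an unadjusted p under 0.05, and Lep and Fabp4 lay below every AdWT library in AdKO. Ucp1, the uncoupling protein of thermogenic fat, had 25, 8 and 7 counts in AdWT and 21, 58 and 67 in AdKO, with overlap (log2 fold change 1.85, SE 0.57, unadjusted p = 0.0135, adjusted p = 0.851 by edgeR). Cox8b, a complex IV subunit of such fat and of muscle, was at 50.2, 39.7 and 33.3 CPM in AdWT and at 55.7, 72.3 and 58.9 in AdKO, without overlap (0.60, SE 0.17, unadjusted p = 0.00783, adjusted p = 0.847). Of all rows tested, 11.9% did not overlap. Markers of skeletal muscle, a tissue rich in mitochondria, summed to 35.4, 179 and 19.8 CPM in AdWT replicates 1 to 3 and to 6.25 to 7.28 in AdKO, with 7 of 7 tested markers lower in AdKO at an unadjusted p under 0.05 and none at an adjusted p under 0.05. Myh4 and Tnnt3 of that list were at 0 in all libraries. Macrophage markers summed to 219 to 395 CPM in AdWT and 363 to 497 in AdKO, fibroblast markers to 2378 to 4030 and 2623 to 3344 and endothelial markers to 789 to 1155 and 771 to 1094. A single gene gave almost all of each sum: Mrc1, Dpt and Cdh5. The other markers of these lists (Csf1r, Itgam, Pdgfra, Vwf and Kdr) reached at most 1.58 CPM in any library, and Emr1 was at 0. These sums are therefore levels of single genes more than of cell types. Lymph node markers reached at most 21.4 CPM, in AdWT replicate 1, and epithelial markers at most 34.1 CPM, in AdKO replicate 3. The part of these cell types in the values below was not tested.

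The 8 mitochondrial rows took a larger share of each library than all 61 nuclear members combined. The mitochondrial share was 6.52%, 8.37% and 8.59% of counts in AdWT replicates 1 to 3 and 7.45%, 7.96% and 8.01% in AdKO. The nuclear share was 1.07%, 1.07% and 1.18% in AdWT and 1.07%, 1.08% and 1.10% in AdKO. The groups overlapped in both shares, and the means were 7.83% ± 1.14 and 7.81% ± 0.309 for the mitochondrial genome and 1.11% ± 0.0669 and 1.08% ± 0.0187 for the nucleus (AdWT and AdKO, SD, n = 3 each). Mitochondrial counts were 6.12, 7.80 and 7.25 times the nuclear counts in AdWT and 6.98, 7.37 and 7.25 times in AdKO, so this ratio also overlapped. The mitochondrial sum includes both rRNAs and lacks protein genes without a row, and several nuclear subunits held almost no counts. The ratio therefore compares the rows counted and not the whole output of each genome. In bulk tissue, fewer cells of a type and less RNA per cell cannot be told apart.

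**Figure D1:**
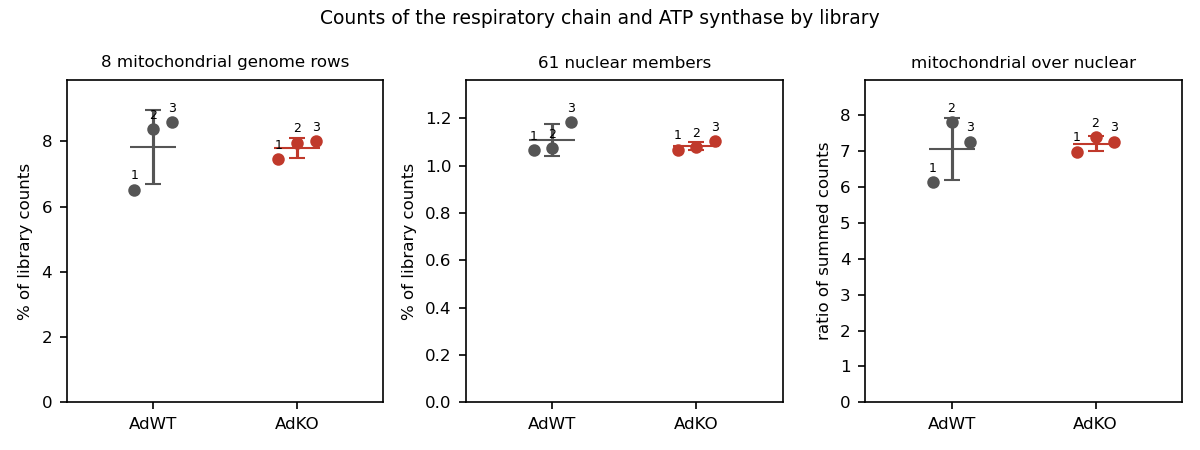
Share of library counts (%) in the 8 mitochondrial rows and in the 61 nuclear members, and the ratio of the summed counts, for each library (points, numbered by replicate; cross bar and error bar, mean ± SD, n = 3). The groups overlap in all 3 panels, and AdWT replicate 1 has the lowest mitochondrial share, 6.52%.

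No member separated the genotypes in the test across all rows. Of the 69 members, 58 had enough counts to be tested (8 mitochondrial, 50 nuclear), and 0 of 58 had an adjusted p under 0.05 in edgeR (quasi-likelihood F test, Benjamini-Hochberg adjusted over all rows), as did 0% of all 9872 rows tested. At an unadjusted p under 0.05 the count was also 0 of 58, where 566 rows (5.73% of those tested) reached it. The lowest adjusted p of a member was 0.851. Under DESeq2 with its defaults 17 rows passed an adjusted p of 0.05, and none of them was a member.

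The precision differed between the genomes. The median SE of the log2 fold change was 0.09 for nuclear and 0.16 for mitochondrial members. The 95% interval of the log2 fold change lay within 0.3 of 0 for 27 of 50 nuclear and 0 of 8 mitochondrial members, compared with 17.4% of all rows tested. It lay within 1.5-fold in either direction for 42 of 50 nuclear and 7 of 8 mitochondrial members, compared with 46.5% of all rows tested, and within 2-fold for 47 and 8, compared with 75.2%. The median SD between replicates was 0.23 on the log2 scale for mitochondrial members, 0.11 for nuclear members and 0.10 for all 633 rows with at least 3000 counts in every library. A mitochondrial difference therefore had to be larger than a nuclear difference to be detectable here.

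**Figure D2:**
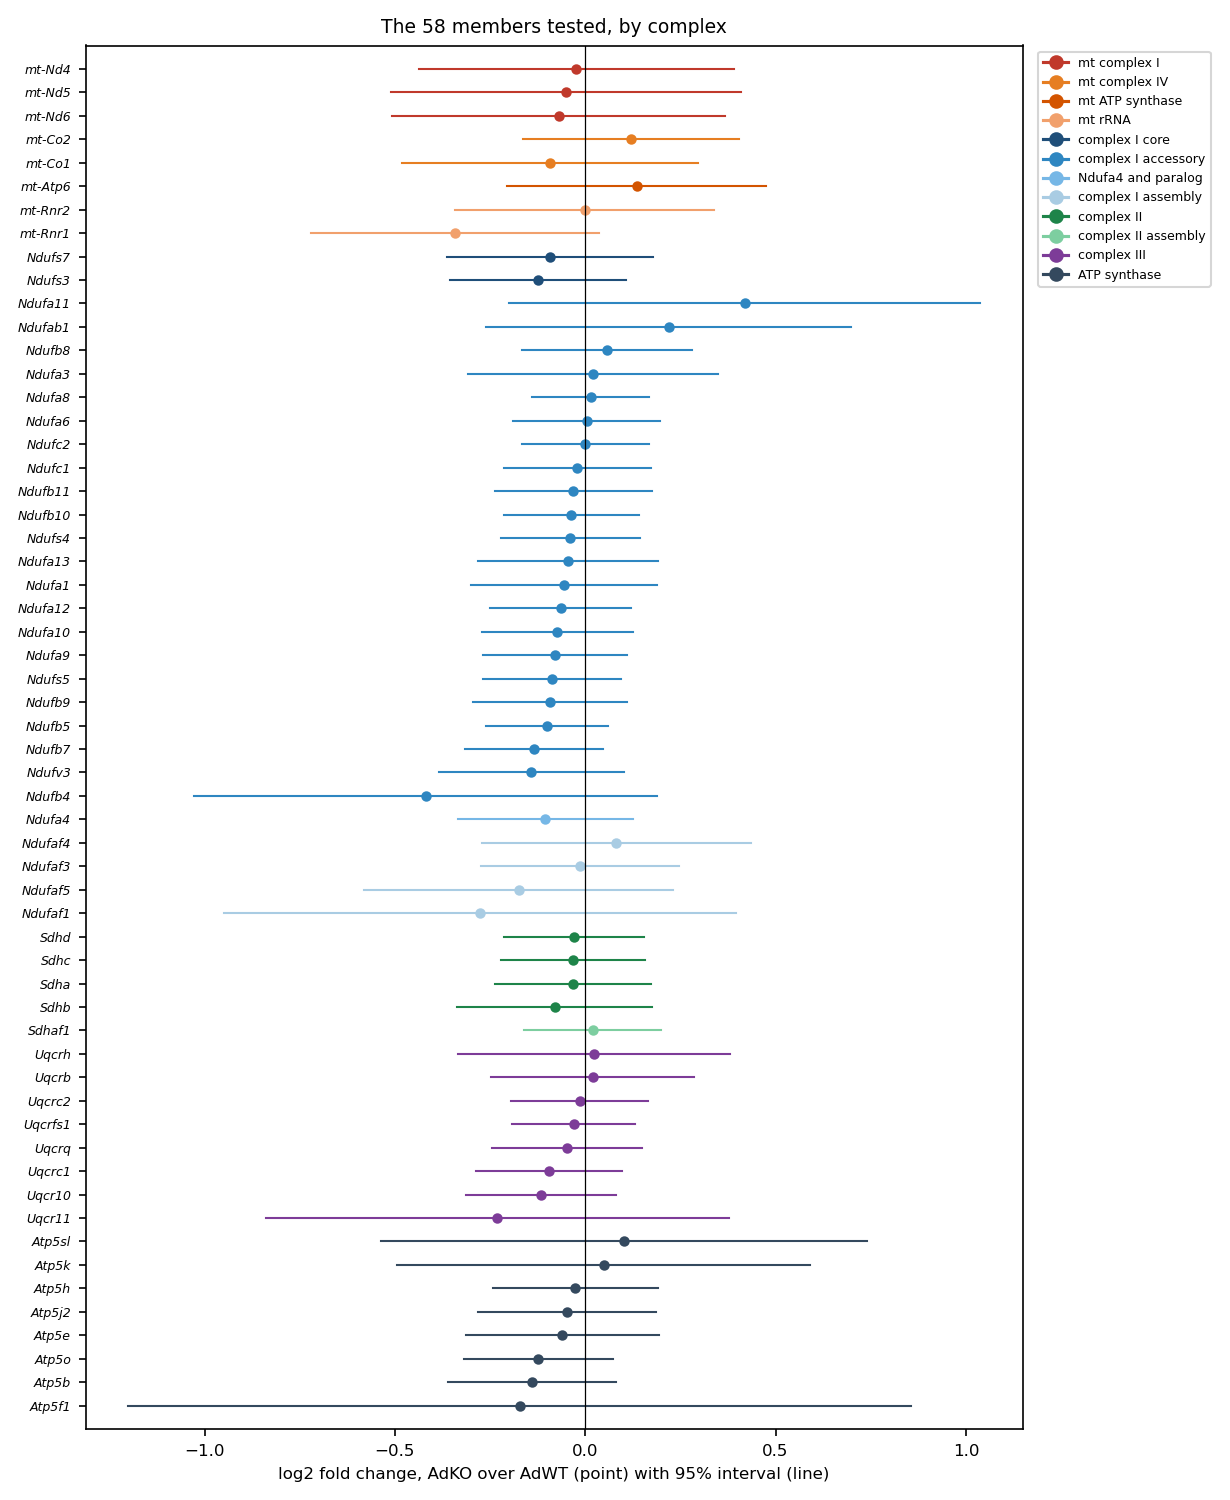
Log2 fold change of each of the 58 tested members, AdKO over AdWT (point), with its 95% interval (line), coloured by complex. Every interval includes 0, and the widest belong to members with few counts, such as Atp5f1 and Ndufa11.

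The mitochondrial genome encodes the membrane core of the chain. Of its 8 members 6 lay below 0, with a median log2 fold change of -0.04 where all rows had a median of 0.007. Dividing counts by library size only moved both medians up, to 0.02 and 0.05, and 3 of 8 then lay below 0. Counts given below for that scaling carry the same shift of all rows. mt-Co1, the catalytic subunit of complex IV, was the most abundant member, both in counts and per kb of gene. Its level was 25819, 35611 and 35019 CPM in AdWT and 29540, 31163 and 29771 CPM in AdKO, so that the AdKO libraries lay inside the AdWT range (log2 fold change -0.09, SE 0.17, adjusted p = 0.923 by edgeR). The complex I subunits mt-Nd4 and mt-Nd5, both part of the proton-pumping arm, were each lowest in AdWT replicate 1. mt-Nd5 was at 15025, 23498 and 24230 CPM in AdWT and at 19690, 20665 and 20274 in AdKO (log2 fold change -0.05, SE 0.20), and mt-Nd4 was at 5285, 7789 and 8471 CPM against 6862, 7143 and 7192 (-0.02, SE 0.18).

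mt-Nd6, the complex I subunit encoded on the opposite strand, was high in a single library. Its level was 2748, 4346 and 2790 CPM in AdWT and 2921, 3398 and 3100 in AdKO (log2 fold change -0.07, SE 0.19). Its annotated interval (chrM:13552-14070, mm9, minus strand) overlaps the end of mt-Nd5 (chrM:11742-13565, plus strand), and whether the counting used strand is not given in the sources used here, so reads of the overlap could not be assigned with certainty. mt-Nd6 amounted to 18.3%, 18.5% and 11.5% of mt-Nd5 counts in AdWT and to 14.8%, 16.4% and 15.3% in AdKO, and the groups overlapped.

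Both ribosomal RNAs of the mitochondrion were tested. mt-Rnr2, the large rRNA, was at 12180, 16155 and 15228 CPM in AdWT and at 13460, 15388 and 14677 in AdKO (log2 fold change -0.001, SE 0.15). mt-Rnr1, the small rRNA, was at 1092, 1298 and 1655 CPM in AdWT and at 925, 1120 and 1144 in AdKO, and the groups overlapped by AdWT replicate 1 alone (log2 fold change -0.34, SE 0.16, unadjusted p = 0.0696, adjusted p = 0.851 by edgeR). This was the lowest p among the members. Without AdWT replicate 1 it passed an unadjusted p of 0.05, as did 11.8% of all rows then tested. It was also the only member to do so with a replicate block (4.23% of rows), with every row that had 1 count or more tested (4.32%) and under DESeq2 (2.42% of rows with its defaults and with filtering at the threshold used, 2.43% without Cooks cutoff and filtering).

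mt-Atp6, the proton channel subunit of the ATP synthase, and mt-Co2, which receives electrons from cytochrome c, were the mitochondrial members with a fold change above 0 (with library size only, mt-Nd4, mt-Nd5 and mt-Rnr2 joined them). mt-Co2 was at 201, 270 and 275 CPM in AdWT and 263, 280 and 268 in AdKO (log2 fold change 0.12, SE 0.12, adjusted p = 0.885 by edgeR). mt-Atp6 was at 279, 420 and 328 CPM in AdWT and 351, 399 and 378 in AdKO (0.14, SE 0.15, adjusted p = 0.885). The groups overlapped for both genes. Leaving out AdWT replicate 2 put mt-Atp6 under an unadjusted p of 0.05, together with 3.2% of the rows then tested, and leaving out AdWT replicate 1 turned the sign of mt-Co2 to -0.01.

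These genes also had the lowest levels of the 8 mitochondrial members, far below the other protein genes measured. Per kb of gene, mt-Co2 was at a mean of 379 CPM (range over the 6 libraries 294 to 409) and mt-Atp6 at 527 (409 to 617), whereas mt-Co1 was at 20164 (16712 to 23049) and mt-Nd4, the lowest of the other protein genes, at 5170 (3835 to 6148). mt-Co2 was below mt-Atp6 in every library, and the range of neither reached that of another mitochondrial gene. Both lie in sequence that the nuclear genome also carries. All 684 bases of mt-Co2 recur without a mismatch at chr1:24621721-24622404 (mm9), as do all 681 bases of mt-Atp6 at chr1:24620810-24621490, and 0% of the 50-base words of either gene occur once in the genome. For mt-Co1 the longest copy, at chr2:22443623-22445167, differs at 37 of 1545 bases (97.6% identity). The copy of mt-Co1 at chr1:24622545-24623023, next to those of mt-Co2 and mt-Atp6, is shorter and shares 430 of the gene's 50-base words, and that of mt-Nd4 at chr1:24618374-24619249 shares 827. The first 60 bases of mt-Co2 and mt-Co1 are printed to show a stretch with an identical copy and a stretch of the chr2 copy that differs at 2 bases near its end. Capitals mark the bases at which gene and copy differ, and all are read 5′ to 3′ on the gene's strand from the mm9 assembly.

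mt-Co2, chrM:7013-7072, plus strand: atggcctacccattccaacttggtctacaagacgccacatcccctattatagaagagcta
nuclear copy of mt-Co2, chr1:24622345-24622404, minus strand: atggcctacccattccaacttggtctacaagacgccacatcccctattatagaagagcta
mt-Co1, chrM:5328-5387, plus strand: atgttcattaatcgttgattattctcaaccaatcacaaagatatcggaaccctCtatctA
nuclear copy of mt-Co1, chr2:22445108-22445167, minus strand: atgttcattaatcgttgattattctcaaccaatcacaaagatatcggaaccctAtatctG

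The share of 50-base words found once was 37.8% for mt-Nd4, 48.9% for mt-Co1, 92.4% for mt-Nd5, 93.9% for mt-Rnr2 and 100% for mt-Nd6 and mt-Rnr1. mt-Rnr1 stood low, at 1263 CPM per kb, although all its words were unique. How reads with more than a single match were treated is not given in the sources used here, and its part in these levels was not tested. No row of the count table carried the symbols mt-Nd1, mt-Nd2, mt-Nd3, mt-Nd4l, mt-Co3, mt-Cytb or mt-Atp8, so these genes could not be analysed here.

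**Figure D3:**
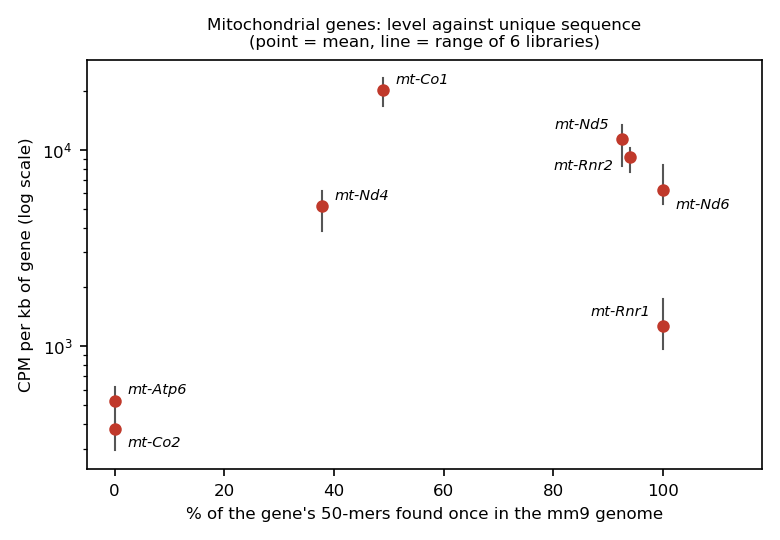
Level of each mitochondrial member (CPM per kb of gene, log scale; point, mean of 6 libraries; line, their range) against the percentage of its 50-base words that occur once in the mm9 genome. mt-Co2 and mt-Atp6, at 0%, lie lowest at 379 and 527 CPM per kb.

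Ratios between mitochondrial genes within a library remove what its mitochondrial rows share, and they were computed after the levels had been seen. mt-Co2 amounted to 0.778%, 0.758% and 0.785% of mt-Co1 counts in AdWT and to 0.891%, 0.897% and 0.900% in AdKO. All AdKO libraries lay above all AdWT libraries, with means of 0.774% ± 0.0137 and 0.896% ± 0.00433 (SD, n = 3), a ratio of 1.16. mt-Atp6 amounted to 1.08%, 1.18% and 0.935% of mt-Co1 in AdWT and to 1.19%, 1.28% and 1.27% in AdKO, again without overlap. mt-Rnr1 amounted to 8.96%, 8.04% and 10.9% of mt-Rnr2 in AdWT and to 6.88%, 7.28% and 7.80% in AdKO, below every AdWT library. Of the 28 ratios that the 8 genes allow, 7 did not overlap between the groups (25%), compared with 99 of 1225 ratios among the tested nuclear members (8.08%). mt-Rnr1 was in 4 of those 7 ratios and mt-Co2 in 3, so the ratios are few independent values. With 3 libraries against 3, the smallest two-sided p an exact permutation test can give is 0.1, and no p is given for ratios chosen in this way.

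**Figure D4:**
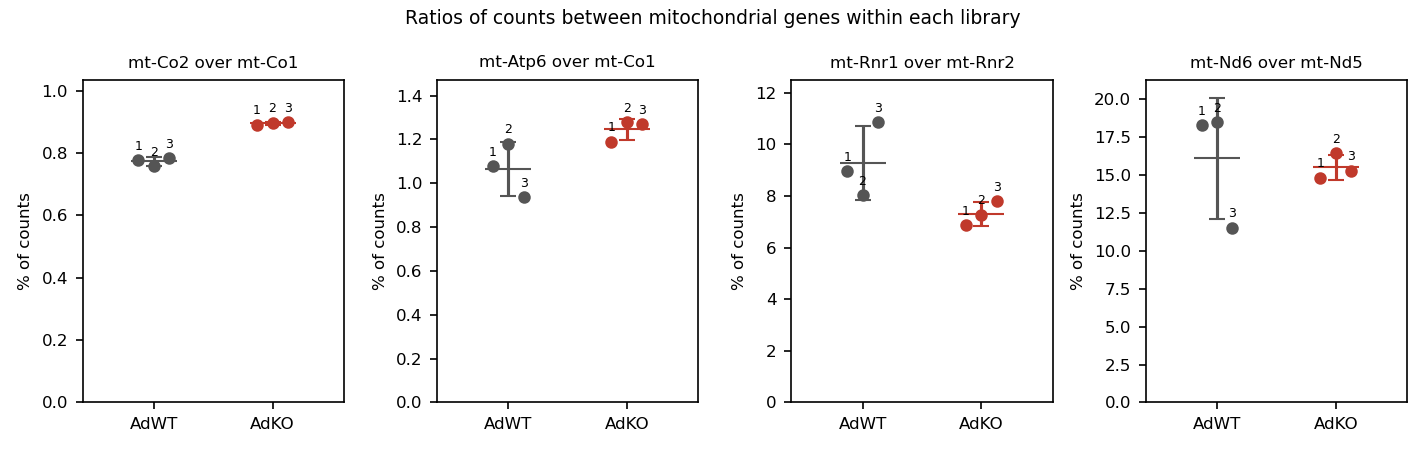
Counts of a mitochondrial gene as a percentage of those of another in the same library (points, numbered by replicate; cross bar and error bar, mean ± SD, n = 3). The groups separate for mt-Co2 and mt-Atp6 over mt-Co1 and for mt-Rnr1 over mt-Rnr2, and overlap for mt-Nd6 over mt-Nd5, where AdWT replicate 3 stands lowest at 11.5%.

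Most nuclear members had fold changes slightly below 0. Of the 50 tested, 37 had the lower level in AdKO (74%), and their median log2 fold change was -0.05, where 48.3% of all rows were lower and the median was 0.007. Deep rows as a whole leaned the same way: of the 633 rows with at least 3000 counts in every library, 66.5% were lower, with a median of -0.05. With counts divided by library size only, 23 of 50 nuclear members were lower, but the nuclear median (0.003) still lay below the median of all rows (0.05), which the scaling had moved as well. The lean depended on a single library, since 24 of 50 were lower without AdWT replicate 3, when 0 of 58 members and 4.9% of rows had an unadjusted p under 0.05. Only Ndufa11 had groups that did not overlap, 1 of 50 nuclear members against 11.9% of all rows (AdKO above in 6.16%, below in 5.72%). With library size only, Ndufa11, Ndufb8 (AdKO above) and Atp5b (AdKO below) did not overlap, 3 of 50 against 11.6% of all rows.

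The ATP synthase was led by Atp5b, its catalytic beta subunit. Atp5b (chr10:127520329-127527447, mm9) was at 3036, 3369 and 3531 CPM in AdWT and at 2908, 3098 and 3010 in AdKO, and the groups overlapped (log2 fold change -0.14, SE 0.09, adjusted p = 0.853 by edgeR). It alone made up 29.7%, 29.4% and 29.1% of the nuclear members' counts in AdWT and 27.4%, 28.7% and 28.4% in AdKO. These shares did not overlap, and no like share was computed for other rows. Of the ratios between tested nuclear members, 8.08% did not overlap. The partner of Atp5b in the catalytic head, the alpha subunit Atp5a1, had 48 counts over the 6 libraries in total where Atp5b had 295419. Atp5a1 was not tested, although all of its 50-base words were unique. Of 13 members with an Atp5 name 8 were tested, 6 of them below 0 (4 with library size only), with a median of -0.05. Among them, RefSeq lists Atp5sl and Atp5s under the symbols Dmac2 and Dmac2l, so both are in this class by name only. Atp5sl was highest (121, 65 and 105 counts in AdWT, 86, 116 and 110 in AdKO, log2 fold change 0.10, SE 0.27). Atp5f1, subunit b of the stalk, was lowest on few counts (25, 41 and 11, then 14, 25 and 28, log2 fold change -0.17, SE 0.44). Of the isogenes of the ring subunit c, Atp5g1 had 36 counts in total and was not tested, and Atp5g2 and Atp5g3 were not analysed here.

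Complex I was the largest class. Its core members Ndufs3 and Ndufs7, which carry electrons or hold the arm that does, were both below 0. Ndufs7 was at 136, 162 and 187 CPM in AdWT and at 159, 143 and 153 in AdKO (log2 fold change -0.09, SE 0.12), and Ndufs3 was at 110, 132 and 139 against 123, 114 and 113 (-0.12, SE 0.10). In both, the AdKO libraries lay within the AdWT range. The third core member, Ndufs1, had 5 rows of which the highest held 49 counts, and it was not tested.

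Of 24 accessory subunits of complex I, 22 were tested, 15 were below 0 (10 with library size only) and the median log2 fold change was -0.04. Ndufb9, the most counted of them, was at 310, 353 and 380 CPM in AdWT and 329, 330 and 319 in AdKO (log2 fold change -0.09, SE 0.09, 95% interval of the fold 0.815 to 1.08). Ndufa11 and Ndufb4 marked the extremes, and both rested on few counts. Ndufa11 had 16, 15 and 13 counts in AdWT and 22, 18 and 18 in AdKO (log2 fold change 0.42, SE 0.26, adjusted p = 0.853 by edgeR). Ndufb4 had 108, 219 and 132 counts in AdWT and 89, 102 and 147 in AdKO (-0.42, SE 0.26, adjusted p = 0.853), with AdWT replicate 2 well above the other libraries, and 72.3% of its 50-base words were unique.

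Ndufa4 carries a complex I name but is now assigned to complex IV. Per kb of the union of annotated exons it had the highest level of the nuclear members with a gene model. Its mean was 797 CPM per kb, ahead of Atp5b at 746 and Ndufb9 at 517. That union was 492 bases from 1 transcript for Ndufa4 and 4237 bases from 9 transcripts for Atp5b, so their order depends on the length used. In CPM Atp5b stood far above Ndufa4, with AdWT means of 3312 and 407. The ranges of Ndufa4 (720 to 923) and Atp5b (686 to 833) over the 6 libraries overlapped. By library, Ndufa4 was at 354, 411 and 454 CPM in AdWT and 389, 367 and 378 in AdKO (log2 fold change -0.10, SE 0.10). Its paralog Ndufa4l2 was not analysed here.

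The Ndufaf genes encode factors that help to assemble complex I. Ndufaf3 was at 37.1, 40.0 and 45.8 CPM in AdWT and at 44.6, 40.0 and 37.2 in AdKO (log2 fold change -0.01, SE 0.11). Ndufaf4 was at 40.0, 45.2 and 30.2 CPM against 37.1, 42.6 and 42.5 (0.08, SE 0.15), and Ndufaf1 had 24, 28 and 21 counts against 18, 26 and 15 (-0.28, SE 0.29). Groups overlapped for all of these, and 4 of 6 assembly members were tested, 3 of them below 0 (2 with library size only). Summed over the 6, the assembly members were at 86.7 ± 5.03 CPM in AdWT and 87.7 ± 1.87 in AdKO (SD, n = 3).

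Complex II, the only complex here made wholly by the nucleus, had fold changes that lay close together. Its 4 subunits were all tested, all 4 were below 0 (1 with library size only, which moved all rows up), and their log2 fold changes ran from -0.08 to -0.03. Sdha, the flavoprotein that oxidises succinate, was at 998, 1127 and 1189 CPM in AdWT and at 1113, 1062 and 1065 in AdKO (log2 fold change -0.03, SE 0.09, 95% interval of the fold 0.848 to 1.13). Sdhb, the iron-sulfur subunit, was at 223, 255 and 302 CPM against 245, 242 and 251 (-0.08, SE 0.11), and Sdhd, a membrane anchor, was at 237, 269 and 276 against 251, 265 and 249 (-0.03, SE 0.08). AdKO libraries fell between the lowest and the highest AdWT library for each. Sdhaf1, which helps to load the iron-sulfur subunit, had the smallest spread of any member tested (SD 0.05 on the log2 scale), at 40.1, 39.6 and 42.4 CPM in AdWT and 42.6, 41.6 and 39.7 in AdKO (log2 fold change 0.02, SE 0.08).

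All 8 complex III members were tested, and 6 were below 0 (3 with library size only) with a median of -0.04. Uqcrc1, a core protein of the complex, was at 472, 529 and 560 CPM in AdWT and 473, 495 and 494 in AdKO (log2 fold change -0.10, SE 0.08). Uqcr11 was lowest, with 35, 42 and 53 counts in AdWT and 43, 34 and 32 in AdKO (-0.23, SE 0.26), and Uqcrh, the acidic hinge subunit, was highest, with 129, 188 and 149 against 152, 158 and 155 (0.02, SE 0.15). None of the 3 separated the groups. Summed by complex, the AdWT and AdKO means were 3275 ± 287 and 3139 ± 47.9 CPM for complex I and 1972 ± 185 and 1920 ± 30.4 for complex II. They were 1480 ± 113 and 1421 ± 34.7 for complex III and 4016 ± 328 and 3672 ± 101 for the nuclear members with an Atp5 name (SD, n = 3 each). The groups overlapped in every sum.

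The AdWT libraries lay further apart than the AdKO libraries, a difference that was not tested. Taking each gene's log2 level against its mean over the 6 libraries, the median nuclear member was at -0.11, 0.06 and 0.13 in AdWT replicates 1 to 3 and at -0.01, -0.02 and -0.04 in AdKO. The median mitochondrial member was at -0.31, 0.18 and 0.13 in AdWT and at -0.06, 0.06 and 0.01 in AdKO. The SDs of these medians were 0.12 in AdWT and 0.02 in AdKO for nuclear members and 0.27 and 0.06 for mitochondrial members. The 633 rows with at least 3000 counts in every library had the same order of spread, with medians of -0.02, 0.05 and 0.04 in AdWT and -0.02, -0.01 and -0.03 in AdKO (SDs 0.04 and 0.009). AdWT replicate 1 was the lowest library for 31 of 50 nuclear and 7 of 8 mitochondrial members, where it was lowest for 15.5% of all rows tested, and AdWT replicate 3 was the highest for 34 of 50 nuclear members, where it was highest for 22.2% of all rows. The muscle markers summed to 35.4, 179 and 19.8 CPM in AdWT replicates 1 to 3, and their part in these values was not tested. Without AdWT replicate 1 the unadjusted p fell under 0.05 for 6 of 50 nuclear members (Atp5o, Ndufa4, Ndufb4, Ndufb7, Ndufs3 and Uqcr10), near the 11.8% of all rows that did so, and none passed adjustment.

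**Figure D5:**
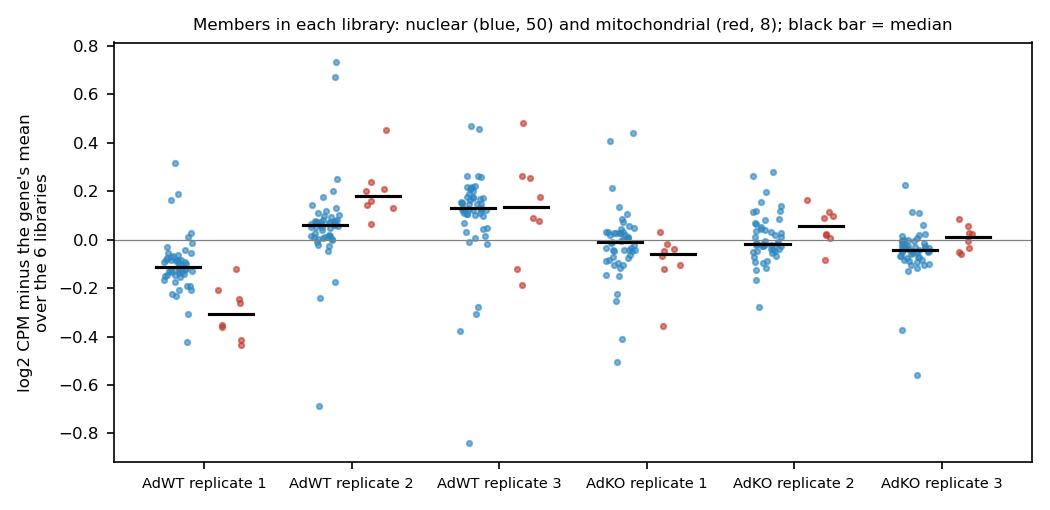
Log2 CPM of each tested member minus its mean over the 6 libraries, by library (blue, 50 nuclear members; red, 8 mitochondrial members; black bar, median). Both genomes sit low in AdWT replicate 1 (medians -0.11 and -0.31), high in AdWT replicates 2 and 3, and near 0 in the AdKO libraries.

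Whether a nuclear member could be tested went with the number of rows its symbol had. Of 41 nuclear symbols with a single row, 40 were tested, with a median total of 15474 counts. Of 20 symbols with 2 or more rows, 10 were tested, the median total of the highest row was 75.5 counts, and 3 (Atp5d, Ndufaf2 and Ndufb2) were at 0 in every row and library. The 11 untested members were Atp5a1, Atp5s, Ndufs1, Ndufs6, Sdhaf2, Atp5g1, Ndufaf7, Atp5l and these 3. Several of them are obligatory subunits, and subunits of the same complex were counted deeply, so the low totals are not read here as low expression. For Atp5l, 13.5% of 50-base words were unique, and for Ndufs1 it was 99.8%. How the table's rows were defined is not given in the sources used here, and its part was not tested.

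Many promoters of nuclear members hold the letters that NRF1, a transcription factor known for its respiratory targets, recognises. The window from 250 bases before to 50 bases after the start (RefSeq, GRCm38.p6) was at hand for 54 of 61 nuclear members. The NRF1 motif, searched on both strands like the others, was in 14 of 54 windows (25.9%), in 4.78% of all 27025 gene windows and in 10% of the 6715 windows of genes tested here. The motif AAGGTCA of the estrogen-related receptors was in 13% of member windows and 3.04% of tested genes' windows, and the ETS core CCGGAAG, which GABP recognises, was in 24.1% and 18.1%. The NRF1 matches overlapped none of the other motifs. Matches are descriptions of letters only. The stretches around the first NRF1 match are printed for Sdha, Sdhd and Ndufaf4, an enzyme subunit, a membrane anchor and an assembly factor with values above, with the match in capitals and each read 5′ to 3′ on the gene's strand.

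Sdha, chr13:74350304-74350363, GRCm38.p6, minus strand: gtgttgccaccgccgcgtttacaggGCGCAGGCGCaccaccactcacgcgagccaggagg
Sdhd, chr9:50603894-50603953, GRCm38.p6, minus strand: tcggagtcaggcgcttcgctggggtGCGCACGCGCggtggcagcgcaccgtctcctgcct
Ndufaf4, chr4:24897945-24898004, GRCm38.p6, plus strand: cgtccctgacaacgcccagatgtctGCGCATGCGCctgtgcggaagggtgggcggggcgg

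Among the tested genes that express the mitochondrial genome or regulate the nuclear members, 0 passed an unadjusted p of 0.05. Tfam, which packages and transcribes mitochondrial DNA, had 87, 80 and 89 counts in AdWT and 77, 76 and 76 in AdKO (log2 fold change -0.14, SE 0.17, adjusted p = 0.885 by edgeR). Polrmt, the mitochondrial RNA polymerase, had 61, 58 and 37 counts against 56, 58 and 61 (0.19, SE 0.21). All AdKO libraries lay below all AdWT libraries in raw counts of Tfam, but the groups overlapped in CPM. Of 16 genes tested for expression of the mitochondrial genome, 9 lay above 0 and 7 below, the median was 0.03, and 0 had an unadjusted p under 0.05.

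Regulators of the nuclear members were read at very different depths. Esrra, an estrogen-related receptor, had 1117, 1364 and 1009 counts in AdWT and 1068, 1157 and 1252 in AdKO (log2 fold change 0.02, SE 0.08). Nrf1 had 0 to 2 counts in each library, and Ppargc1a, Ppargc1b and Esrrb were at 0 in all 6, so no fold change is given for them. A count of 0 allows up to 3 counts, or 0.179 to 0.206 CPM in these libraries, a limit on the counts of these rows and not on expression, since obligatory members were at 0 as well. Of the 8 regulators tested, 5 were higher and 3 lower, with 0 at an unadjusted p under 0.05.

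Among the electron carriers and the coenzyme Q pathway, 12 genes were tested, 4 higher and 8 lower, with a median of -0.06. Coq9, which is needed to make coenzyme Q, was the only one of the 12 under an unadjusted p of 0.05, which 5.73% of all rows reached. It had 3431, 4171 and 3864 counts in AdWT and 3005, 3454 and 3496 in AdKO, and its groups overlapped in CPM (log2 fold change -0.19, SE 0.08, unadjusted p = 0.0491, adjusted p = 0.851 by edgeR). Of 8 tested assembly factors outside the member prefixes, 3 lay above 0 and 5 below, the median was -0.05, and 0 had an unadjusted p under 0.05.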

How the data were processed

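Total RNA of iWAT was sequenced after a KAPA stranded library preparation on an Illumina HiSeq 3000. The authors aligned reads with HISAT2 to mm9 and deposited raw counts per row, which were used as deposited. The counting tool and annotation are not given in the sources used here. The table has 37024 rows, 17470 of them at 0 in all libraries. Groups and replicate numbers came from the sample titles. Nothing in the labels says how the 3 samples of a group were collected, so p-values measure the spread between these samples. The members and gene lists were chosen with earlier results of these data known.

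Counts were tested with edgeR 4.0.16 (filterByExpr, TMM, quasi-likelihood F test, two-sided, Benjamini-Hochberg over all 9872 rows tested, threshold 0.05) in R 4.3.3, and SEs and 95% intervals come from that fit. DESeq2 1.42.0, other scalings and filters, a replicate block and the removal of each library were alternatives. The limit given for a count of 0 covers counting error only. Genes named were all mitochondrial members, the most counted and the extreme members of each nuclear class, the isogenes of subunit c and Ndufa4, any member or pathway gene with an unadjusted p under 0.05, and Tfam, Polrmt, Nrf1, Esrra, Ppargc1a and Ppargc1b. Others, such as Atp5a1, Ndufs1, Ucp1 and Cox8b, were named after their values were seen. Gene positions came from GENCODE models on NCBIM37 (mm9), and lengths are unions of exons. The scripts were tested on simulated data.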

Additional observations from a re-analysis of the deposited data

How the results depend on the processing

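No member passed an adjusted p of 0.05 under any alternative run. Over all rows, 0 passed it by edgeR and 17 by DESeq2 with its defaults, 13 without its Cooks cutoff and filtering, 27 with filtering at the threshold used (chosen after seeing the data), and 1 with rows of at least 1 count in any library. Leaving out each library gave 0 to 1 such rows (1 without AdKO replicate 3), and 329 to 1208 rows at an unadjusted p under 0.05 (329 without AdWT replicate 2, 1208 without AdWT replicate 1). Of the mitochondrial members, 1 (mt-Rnr1) passed an unadjusted p of 0.05 under these 3 DESeq2 settings, with at least 1 count and with the replicate block, where 418 rows did so and 0 passed adjustment. Same-numbered libraries did not deviate together (r = -0.0764, -0.132 and 0.33, with AdWT replicate 1 closest to AdKO replicate 2 at 0.411), so the numbers are not read as pairs and the block changed no adjusted call. Leaving out each library gave 0 to 1 mitochondrial and 0 to 6 nuclear members. With counts divided by library size only, 3 nuclear members did not overlap, against 11.6% of all rows.

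With library size only, which moved the median of all rows from 0.007 to 0.05, the log2 fold changes of Ndufaf3 (0.035), Sdha (0.017), Sdhd (0.020), mt-Nd4 (0.033), mt-Nd5 (0.0079) and mt-Rnr2 (0.052) turned positive. The replicate block turned mt-Nd4 (0.0047) and mt-Rnr2 (0.0069). mt-Rnr2 also turned with at least 10 counts in every library (0.0011) and with the rows of a symbol summed (0.00065). The median log2 fold change of nuclear members was -0.12 when AdWT replicate 1 was left out and 0.007 when AdWT replicate 3 was, and that of mitochondrial members was -0.19 and, when AdWT replicate 2 was left out, 0.06. Leaving out each library turned the sign of Atp5f1 (from -0.52 to 0.27), Atp5sl (from -0.16 to 0.31), Ndufaf3 (from -0.086 to 0.065), Ndufaf4 (from -0.073 to 0.21), Ndufs7 (from -0.20 to 0.016), Sdha (from -0.10 to 0.015), Sdhaf1 (from -0.0041 to 0.048), Sdhb (from -0.18 to 0.032), Sdhd (from -0.093 to 0.0052), Uqcrh (from -0.077 to 0.12), mt-Co2 (from -0.011 to 0.19), mt-Nd4 (from -0.20 to 0.10), mt-Nd5 (from -0.24 to 0.060), mt-Nd6 (from -0.19 to 0.18) and mt-Rnr2 (from -0.11 to 0.077). Over the 27 members named by the rule and all alternatives, 35 values turned and 451 kept their sign and their side of the threshold, and the other tested members are not in these counts. The causes were not tested. Depth was lowest for the 8 tested nuclear members that did not reach 100 counts in every library.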
